A study of Saccharomyces cerevisiae with 8 samples.

Results

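The genes described here are 38 genes of sulfur, methionine and cysteine metabolism in the yeast Saccharomyces cerevisiae. They were chosen by name from what their products do, with earlier results of these data known. All 38 were among the 5449 genes tested. They cover sulfate uptake, sulfate activation and reduction, the homoserine branch, the methionine and S-adenosylmethionine (SAM) cycle, transsulfuration, uptake of organic sulfur compounds, and the transcription factors of the pathway with the ubiquitin ligase subunit that restrains them. Each gene had 1 probe set on the array. Levels were measured in strain BY4741, a MATa haploid that lacks MET17, URA3 and LEU2 and carries a disabled HIS3, in every group. Cultures grown to saturation in rich glucose medium at 30 °C were sampled at time zero with the solvent only (2% isopropanol, 2 RNA samples), and after 1 h (2 RNA samples), 2 h (2 RNA samples) and 4 h (1 RNA sample on 2 technical arrays) in 0.05 mM TFM with the same share of isopropanol. The labels do not spell TFM out; a nitrophenol used to kill lamprey larvae, an uncoupler of oxidative phosphorylation, commonly goes by these letters. No solvent control was sampled after time zero, so exposure to TFM and elapsed time cannot be told apart. The study asks how yeast respond to the compound over time.

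Yeast takes up sulfate, activates it with ATP and reduces it to sulfide, which O-acetylhomoserine sulfhydrylase, the product of MET17, joins to a carbon chain made from aspartate to give homocysteine. Homocysteine is methylated to methionine, passed on to SAM, the main methyl donor of the cell, or turned into cysteine by transsulfuration. Most of these genes are switched on by the activator Met4, which is brought to promoters by Cbf1 or by Met31 and Met32, and which is held in check by the ubiquitin ligase subunit Met30 when sulfur compounds are plentiful. A strain without MET17 lacks the usual step that fixes sulfide, so it is generally grown with a supply of organic sulfur such as the methionine in rich medium.

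The genes missing from the strain read near the bottom of the arrays. The probe set of MET17 lay between 4.36 and 4.76 on the log2 scale in the 8 arrays, at percentile 0.86 of all probe sets, and those of URA3 and LEU2 lay at percentiles 0.50 and 1.26. The MATa genes STE2, MFA1 and MFA2 averaged 12.01, 12.21 and 12.89, and STE6 and BAR1 averaged 10.45 and 10.53. The MATalpha genes STE3, MF(ALPHA)1 and MF(ALPHA)2 averaged 9.27, 7.29 and 7.59. Of these, MF(ALPHA)1 stood at 7.49 and 7.73 in the controls and 5.34 and 5.68 on the 4 h arrays, and fell by 2.10 (SE 0.28, adjusted p = 0.0199) at 4 h. STE3 fell by 0.96 (SE 0.14, adjusted p = 0.0337) from 1 h to 2 h, and the part of these changes in the results was not tested. Ribosomal RNA, read by 17 control probe sets outside the genes tested, had a median signal of 9.76 and 9.97 at time zero, 10.5 and 11.8 after 1 h, 11.4 and 13.0 after 2 h, then 12.2 and 12.1 in the 4 h sample. All levels below are log2 values, all changes are log2 differences with limma's standard error (SE), and a gene rose or fell where its adjusted p was under 0.05 over all 5449 genes.

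As a group the sulfur genes had values below the controls at 1 h, near them at 2 h and above them at 4 h, with calls in a minority of members. At 1 h 3 of the 38 fell (MET28, MET8 and MET1) and 0 rose, and the median change was -0.19 against -0.03 over all genes. At 2 h 0 rose and 0 fell, with a median of 0.03 against -0.02. At 4 h 7 rose (STR3, OPT1, MUP3, MUP1, MET2, MET16 and MET32) and 0 fell, with a median of 0.30 against 0.00 over all genes. Of all genes, limma called 3.47% higher and 1.52% lower at 1 h, 0.0184% higher and 0.0918% lower at 2 h, and 0.734% higher and 3.73% lower at 4 h. The members called higher at 4 h were 18.4% of the 38, and those called lower at 1 h were 7.89%. At an unadjusted p under 0.05, 2 members were higher and 10 lower at 1 h, 2 and 3 at 2 h, and 15 and 2 at 4 h. That was 31.6%, 13.2% and 44.7% of the members, against 27.5%, 12.3% and 19.8% of all genes. With both directions pooled, the 1 h and 2 h shares were thus near those of all genes. Negative changes made up 78.9%, 39.5% and 18.4% of the members at 1, 2 and 4 h, against 55.9%, 56.2% and 50.6% of all genes. These 3 comparisons share the control samples. A value from a bulk culture does not tell less RNA per cell from fewer cells with the RNA.

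**Figure D1:**
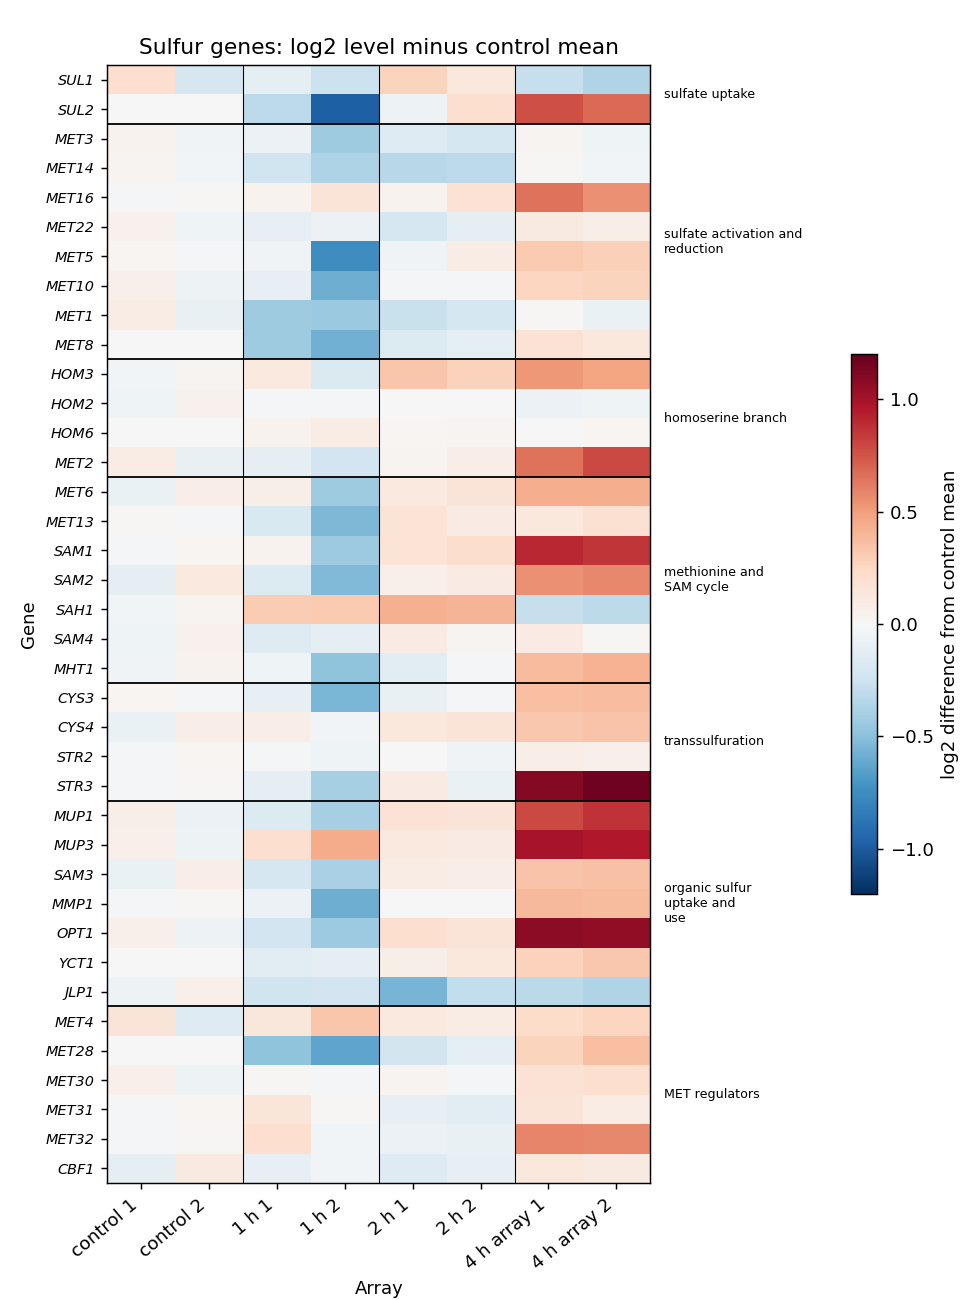
The log2 level of each of the 38 sulfur genes (rows, grouped by role) on each of the 8 arrays (columns), minus the gene's control mean; red is higher and blue is lower. The column of 1 h replicate 2 is mostly blue, both 4 h columns are mostly red, and STR3, OPT1 and MUP3 are the darkest red genes at 4 h.

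The 2 sulfate permeases took different courses. SUL2, a high-affinity sulfate permease, stood at 10.77 and 10.78 in the solvent controls, 10.46 and 9.80 after 1 h, 10.72 and 10.97 after 2 h, then 11.55 and 11.46 for the arrays of the 4 h sample. Both 1 h samples were below both controls, and the 4 h sample was above every other sample. SUL2 rose by 1.37 (SE 0.26, adjusted p = 0.0281) between 1 h and 4 h, while its changes from the controls, -0.64 at 1 h and 0.73 (adjusted p = 0.19) at 4 h, did not pass. SUL1, the other high-affinity permease, stood at 10.95 and 10.56 in the solvent controls, 10.64 and 10.50 after 1 h, 11.03 and 10.88 after 2 h, then 10.48 and 10.40 for the arrays of the 4 h sample. Its lowest values were on the 4 h arrays, where SUL2 had its highest, but none of its changes passed, and at 4 h it stood at -0.32 (SE 0.18, adjusted p = 0.361). Whether the changes of SUL1 and SUL2 differ was not tested.

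Of the 8 genes that activate and reduce sulfate, 2 fell at 1 h and 1 rose at 4 h. MET8 and MET1 encode enzymes that make siroheme, the cofactor of sulfite reductase. MET8 stood at 11.03 and 11.01 in the solvent controls, 10.60 and 10.45 after 1 h, 10.85 and 10.91 after 2 h, then 11.20 and 11.15 for the arrays of the 4 h sample. MET1 stood at 11.77 and 11.60 in the solvent controls, 11.26 and 11.25 after 1 h, 11.42 and 11.48 after 2 h, then 11.70 and 11.61 for the arrays of the 4 h sample. For both genes the 1 h samples were the lowest and did not overlap any other group. MET8 fell by 0.50 (SE 0.08, adjusted p = 0.035) and MET1 fell by 0.43 (SE 0.09, adjusted p = 0.0455) at 1 h. MET8 then rose by 0.65 (SE 0.10, adjusted p = 0.0174) from 1 h to 4 h, and MET1 stood at 0.40 (adjusted p = 0.0572) in that comparison.

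MET16, which encodes the reductase that turns activated sulfate (PAPS) into sulfite, was the member of this step that rose at 4 h. It stood at 9.87 and 9.90 in the solvent controls, 9.93 and 10.04 after 1 h, 9.93 and 10.06 after 2 h, then 10.54 and 10.44 for the arrays of the 4 h sample. Every sample after time zero lay above both controls, and the 4 h sample was the highest. MET16 rose by 0.60 (SE 0.10, adjusted p = 0.0367) at 4 h and by 0.50 (SE 0.10, adjusted p = 0.0333) from 1 h to 4 h. The enzymes just before it had values at 4 h near those of the controls: MET3, ATP sulfurylase, and MET14, the kinase that makes PAPS, each stood at -0.01 (SE 0.15 and 0.10). MET5 and MET10, the subunits of sulfite reductase, stood at 0.30 and 0.26, and MET22, which clears the nucleotide left over from PAPS, at 0.09. None of these 5 passed in any of the 6 comparisons. All 8 genes of the step were higher at 4 h than at 1 h, by 0.18 to 0.69, of which 2 passed. Over all genes 52.8% were higher at 4 h than at 1 h, and 3.19% passed as higher. For MET5 and MET10, 1 h replicate 2 minus replicate 1 was -0.70 and -0.49.

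In the homoserine branch, which builds the carbon skeleton of methionine and threonine from aspartate, the last enzyme on the way to methionine rose at 4 h. MET2, homoserine O-acetyltransferase, makes the substrate of the missing MET17 enzyme and of Str2. It stood at 12.17 and 11.98 in the solvent controls, 11.95 and 11.85 after 1 h, 12.11 and 12.15 after 2 h, then 12.73 and 12.86 for the arrays of the 4 h sample. The samples before 4 h lay between 11.85 and 12.17, with overlap between 2 h and the controls, and the 4 h sample lay above all of them. MET2 rose by 0.72 (SE 0.11, adjusted p = 0.029), a 1.65-fold rise, against the controls and by 0.89 (SE 0.11, adjusted p = 0.0124) against 1 h. HOM3, the aspartate kinase at the head of the branch, stood at 0.50 (SE 0.14, adjusted p = 0.116) at 4 h. HOM2 and HOM6, the next enzymes, stood at -0.06 and 0.01 at 4 h and within 0.07 of the controls at the other times.

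In the methionine and SAM cycle, both SAM synthetase genes were higher at 4 h than at 1 h and SAH1 went the other way. SAM1 stood at 11.79 and 11.83 in the solvent controls, 11.86 and 11.37 after 1 h, 11.98 and 12.03 after 2 h, then 12.71 and 12.67 for the arrays of the 4 h sample. SAM2 stood at 12.26 and 12.50 in the solvent controls, 12.22 and 11.86 after 1 h, 12.45 and 12.48 after 2 h, then 12.93 and 12.96 for the arrays of the 4 h sample. For both the 4 h sample was the highest and 1 h replicate 2 the lowest. SAM1 rose by 1.08 (SE 0.19, adjusted p = 0.0242) and SAM2 by 0.90 (SE 0.17, adjusted p = 0.0285) from 1 h to 4 h. Against the controls the 4 h changes were 0.88 (adjusted p = 0.0595) and 0.56 (adjusted p = 0.141), and did not pass. SAM1 and SAM2 are close copies of each other, so how their probe sets divide the signal of the pair is uncertain.

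SAH1 encodes the hydrolase that removes S-adenosylhomocysteine, the product and inhibitor of SAM-dependent methylation. It stood at 11.95 and 12.01 in the solvent controls, 12.29 and 12.30 after 1 h, 12.41 and 12.39 after 2 h, then 11.70 and 11.67 for the arrays of the 4 h sample. The 4 groups did not overlap: 1 h and 2 h were above the controls and 4 h was below them. SAH1 fell by 0.71 (SE 0.09, adjusted p = 0.0344) from 2 h to 4 h, and by 0.60 (SE 0.09, adjusted p = 0.0154) from 1 h to 4 h. Its changes from the controls, 0.31 at 1 h (adjusted p = 0.0586), 0.41 at 2 h (adjusted p = 0.122) and -0.29 at 4 h (adjusted p = 0.135), did not pass. SAH1 was the only member called lower at 4 h against either earlier time.

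The other genes of the cycle had no call in any comparison. MET6, the methionine synthase, stood at 0.44 at 4 h against the controls, and MET13, which makes the methyl-folate it uses, at 0.16. MHT1 and SAM4 encode homocysteine methyltransferases that take their methyl group from S-methylmethionine and from SAM, and stood at 0.40 and 0.05. From 1 h to 4 h these 4 genes stood between 0.19 (SAM4) and 0.67 (MHT1), with adjusted p from 0.0585 to 0.214.

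In transsulfuration, which links homocysteine and cysteine through cystathionine in both directions, STR3 rose at 4 h and the other 3 genes did not pass. STR3 encodes cystathionine beta-lyase, which releases homocysteine from cystathionine on the way from cysteine to methionine. It stood at 11.41 and 11.43 in the solvent controls, 11.31 and 11.02 after 1 h, 11.52 and 11.34 after 2 h, then 12.53 and 12.59 for the arrays of the 4 h sample. The 4 h sample was more than 1.0 above each other sample. STR3 rose by 1.14 (SE 0.15, adjusted p = 0.0177), a 2.20-fold rise, against the controls, and by 1.39 (SE 0.15, adjusted p = 0.00802) against 1 h. It rose by 1.13 (SE 0.15, adjusted p = 0.0364) against 2 h, where it ranked 1 of the 5449 genes by size of rise. STR2, the cystathionine gamma-synthase that precedes it in the same direction, stood at 0.07 (SE 0.09) at 4 h and within 0.04 of the controls before that. CYS4 and CYS3, the synthase and lyase of the opposite direction, stood at 0.33 (adjusted p = 0.158) and 0.37 (adjusted p = 0.312) at 4 h.

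**Figure D2:**
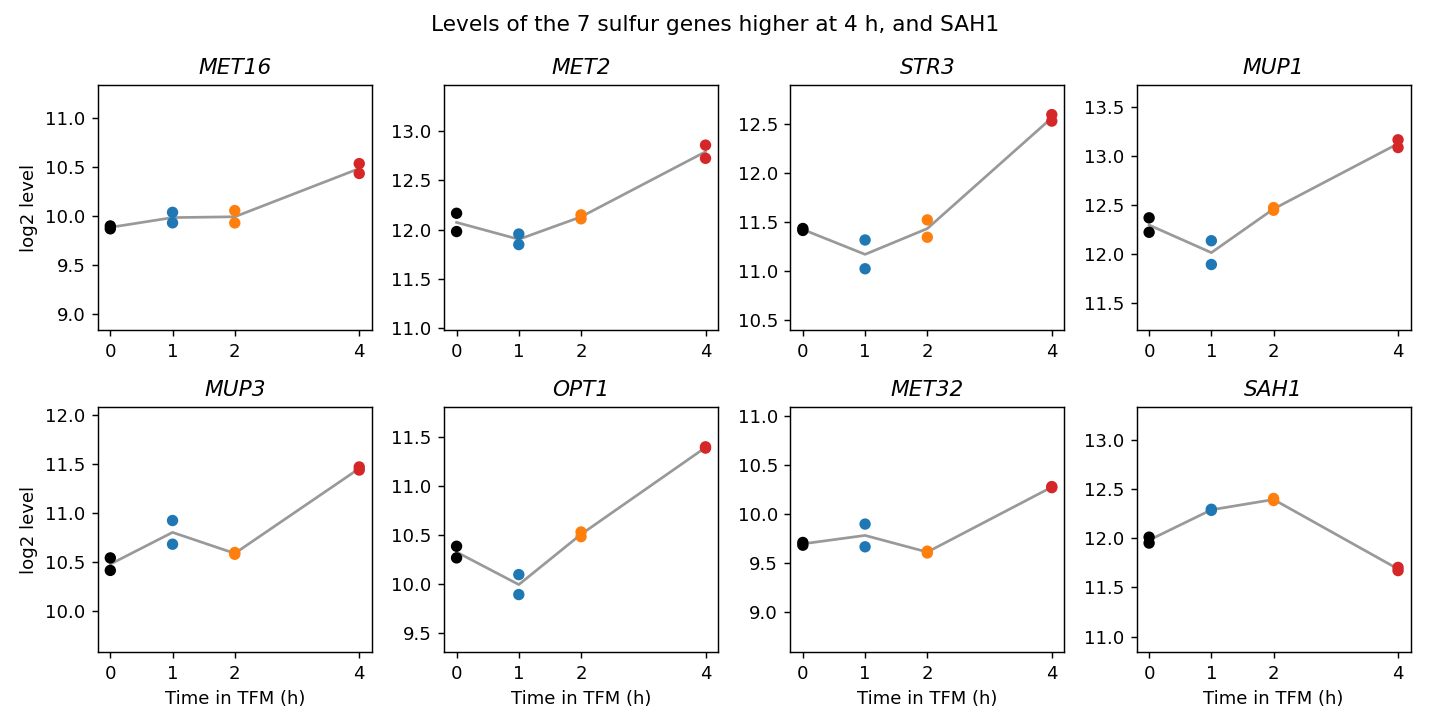
The log2 level of the 7 sulfur genes called higher at 4 h, and of SAH1, against hours in TFM, with a point for each array, a grey line through the group means and a vertical span of 2.5 in every panel. The points at 4 h are 2 arrays of 1 RNA sample; they lie above all earlier points in the 7 genes and below them in SAH1.

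Of the 7 genes for uptake or use of organic sulfur, 3 transporters rose at 4 h. OPT1, which carries glutathione and oligopeptides into the cell, stood at 10.38 and 10.26 in the solvent controls, 10.09 and 9.89 after 1 h, 10.53 and 10.48 after 2 h, then 11.40 and 11.38 for the arrays of the 4 h sample. It was lowest at 1 h and highest at 4 h, with no overlap between the groups. OPT1 rose by 1.07 (SE 0.12, adjusted p = 0.0145), a 2.09-fold rise, against the controls and by 0.89 (SE 0.12, adjusted p = 0.0412) against 2 h. Against 1 h it rose by 1.40 (SE 0.12, adjusted p = 0.00481) and ranked 1 of all 5449 genes by size of rise, followed by STR3 at rank 2 and SUL2 at rank 3.

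The methionine permeases MUP1 and MUP3 were both higher at 4 h, and a difference between them at 1 h was not tested. MUP1, the high-affinity permease, stood at 12.37 and 12.22 in the solvent controls, 12.14 and 11.89 after 1 h, 12.47 and 12.45 after 2 h, then 13.09 and 13.16 for the arrays of the 4 h sample. MUP3, the low-affinity permease, stood at 10.54 and 10.41 in the solvent controls, 10.68 and 10.92 after 1 h, 10.59 and 10.58 after 2 h, then 11.47 and 11.43 for the arrays of the 4 h sample. The 1 h samples of MUP1 were below both controls and those of MUP3 above them, though neither 1 h change passed (-0.28 and 0.32). At 4 h MUP1 rose by 0.83 (SE 0.13, adjusted p = 0.0285) and MUP3 by 0.98 (SE 0.13, adjusted p = 0.0183), which are 1.78-fold and 1.97-fold rises. From 1 h to 4 h they rose by 1.11 (SE 0.13, adjusted p = 0.0107) and 0.65 (SE 0.13, adjusted p = 0.0296), and from 2 h to 4 h MUP3 rose by 0.87 (SE 0.13, adjusted p = 0.0478).

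SAM3, a SAM permease, and YCT1, a cysteine transporter, rose only from 1 h to 4 h. SAM3 stood at 11.92 and 12.08 in the solvent controls, 11.80 and 11.61 after 1 h, 12.09 and 12.08 after 2 h, then 12.34 and 12.35 for the arrays of the 4 h sample, and YCT1 at 11.58 and 11.58, 11.44 and 11.48, 11.65 and 11.71, and 11.86 and 11.90 in the same order. Both were lowest at 1 h and highest at 4 h. The rises from 1 h to 4 h were 0.64 (SE 0.12, adjusted p = 0.028) for SAM3 and 0.42 (SE 0.09, adjusted p = 0.0339) for YCT1. MMP1, the S-methylmethionine permease, stood at 0.38 (adjusted p = 0.338) at 4 h. JLP1, a dioxygenase that frees sulfite from sulfonates, was dim, with a mean below the 25th percentile of all probe sets, and stood at -0.23, -0.43 and -0.34 at 1, 2 and 4 h with no call.

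The annotation places MMP1 next to MHT1, and SAM3 next to SAM4, the only adjoining pairs among the 38. The pairs join a permease to the methyltransferase that uses what it imports. MMP1 and MHT1 stood at 0.38 and 0.40 at 4 h and at -0.33 and -0.27 at 1 h. SAM3 and SAM4 stood at 0.34 and 0.05 at 4 h and at -0.30 and -0.14 at 1 h. The first pair thus had like values and the second did not, and no difference within a pair was tested.

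**Figure D3:**
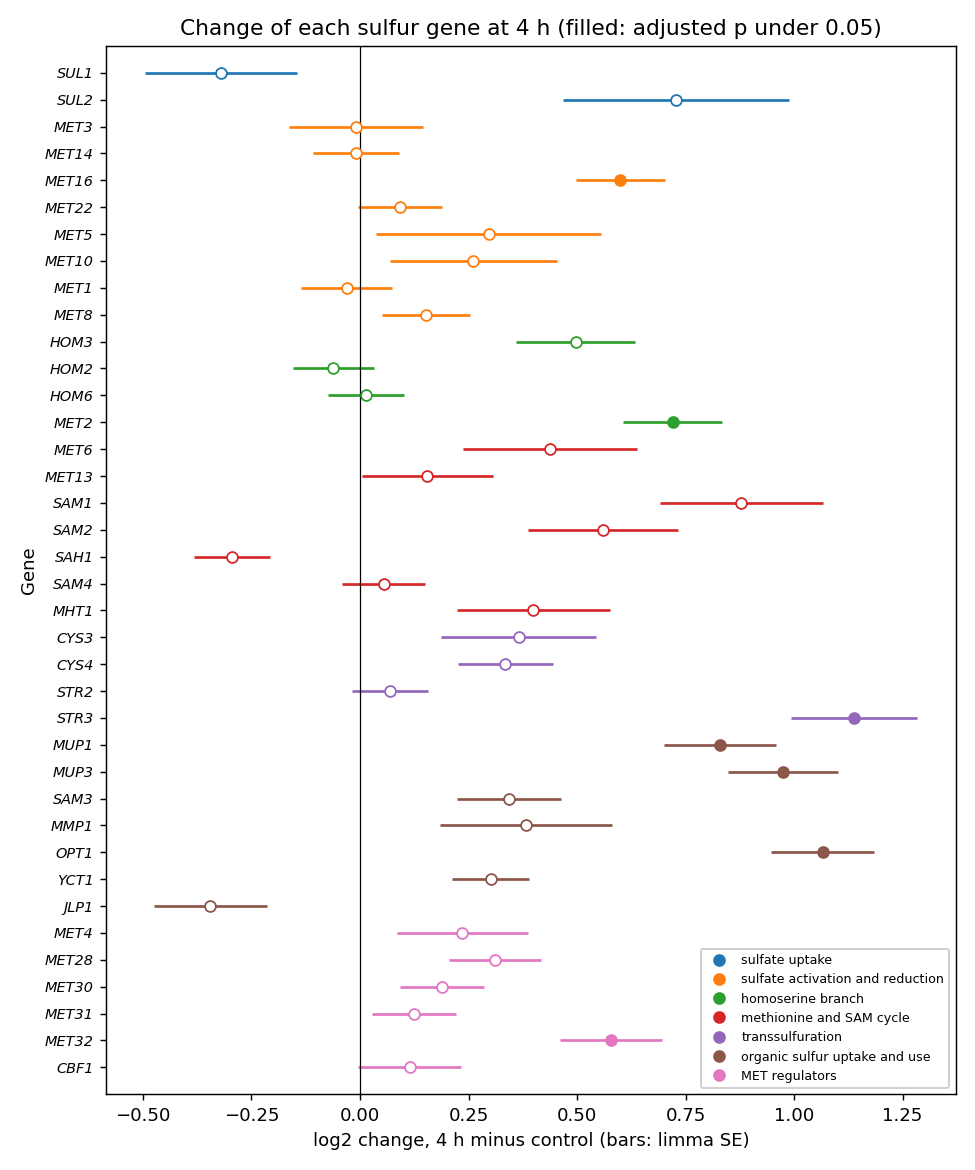
The log2 change from control to 4 h of each of the 38 sulfur genes (rows), coloured by role, with bars for limma's SE and filled points for adjusted p under 0.05. The 7 filled points lie between 0.58 (MET32) and 1.14 (STR3), and 31 of the 38 points lie above 0. Over all genes 49.4% of the changes lay above 0 and 0.734% of genes were called higher.

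Among the regulators, MET28 fell at 1 h, MET32 rose at 4 h and the other 4 had no call in any comparison. MET28, a bZIP protein that stabilises the Met4 complex on DNA and is itself a target of it, was dim and stood at 9.76 and 9.75 in the solvent controls, 9.27 and 9.12 after 1 h, 9.53 and 9.63 after 2 h, then 10.01 and 10.11 for the arrays of the 4 h sample. The groups did not overlap. MET28 fell by 0.55 (SE 0.09, adjusted p = 0.0291) at 1 h and rose by 0.87 (SE 0.11, adjusted p = 0.0113) from 1 h to 4 h, and at 4 h it stood at 0.31 (adjusted p = 0.173) against the controls. MET32, a zinc finger protein that brings Met4 to promoters, was dim as well and stood at 9.68 and 9.71 in the solvent controls, 9.90 and 9.67 after 1 h, 9.62 and 9.60 after 2 h, then 10.28 and 10.27 for the arrays of the 4 h sample. MET32 rose by 0.58 (SE 0.12, adjusted p = 0.0499) at 4 h, just inside the threshold, and by 0.49 (SE 0.12, adjusted p = 0.0464) from 1 h to 4 h.

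The remaining regulators had no call, and their 4 h values lay within 0.24 of the control means. MET31, the near relative of MET32, stood at 10.67 and 10.72 in the solvent controls, 10.84 and 10.71 after 1 h, 10.60 and 10.57 after 2 h, then 10.85 and 10.79 for the arrays of the 4 h sample, a change of 0.12 (SE 0.10) at 4 h. MET4, the activator, stood at 11.85 and 11.55 in the solvent controls, 11.84 and 12.03 after 1 h, 11.81 and 11.79 after 2 h, then 11.92 and 11.95 for the arrays of the 4 h sample, and its controls lay farther apart than its group means. CBF1, which binds the same promoters and also centromeres, stood at 10.38 and 10.60 in the solvent controls, 10.39 and 10.46 after 1 h, 10.33 and 10.39 after 2 h, then 10.61 and 10.59 for the arrays of the 4 h sample. MET30, the F-box subunit that marks Met4 with ubiquitin, stood at 13.01 and 12.89 in the solvent controls, 12.96 and 12.93 after 1 h, 12.98 and 12.94 after 2 h, then 13.12 and 13.15 for the arrays of the 4 h sample. Their 4 h changes were 0.24 (SE 0.15) for MET4, 0.11 (SE 0.12) for CBF1 and 0.19 (SE 0.10) for MET30.

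Between treated times, calls were made against 4 h and none between 1 h and 2 h. From 1 h to 2 h 0 members were called higher and 0 lower by limma, against 0.128% and 2.51% of all genes. At an unadjusted p under 0.05, 14 members were higher and 0 lower in that step, which was 36.8% of them against 22.3% of all genes. From 2 h to 4 h 3 members rose (STR3, OPT1 and MUP3) and SAH1 fell, against 0.0918% and 0.771% of all genes, and these 3 were among only 5 genes called higher in that step. From 1 h to 4 h 14 rose and SAH1 fell, against 3.19% and 8.53% of all genes. The medians of the 38 were 0.21, 0.27 and 0.51 in these comparisons, against 0.01, 0.03 and 0.02 over all genes. Without 1 h replicate 2 the median from 1 h to 2 h was 0.07. The comparisons share samples with each other and with those against the controls. These counts moved when single samples were left out, also samples of neither group compared, which enter through the shared spread. Without 1 h replicate 1, 15 members were called higher from 1 h to 2 h and 24 from 1 h to 4 h, and over all genes the counts rose as well, from 7 to 259 and from 174 to 649. Without 2 h replicate 1 or 2 h replicate 2 only 5 were called higher, and SAH1 was not called, from 1 h to 4 h, with 7 of all genes called higher. From 2 h to 4 h, 0 members were called higher or lower without any one of the controls or 2 h samples, and 5 were called higher without either 1 h sample, among 11 of all genes.

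The lower values at 1 h lay largely in 1 of the 2 samples. In 1 h replicate 1 the median deviation of the 38 genes from the control mean was -0.10 and 26 were below it, while in 1 h replicate 2 it was -0.32 and 32 were below. Over all genes the medians were -0.02 and -0.03, with 55.6% and 55.3% of genes below. A difference of more than 0.4 between the 1 h samples was seen in 8 members, 21.1% of them, each lower in replicate 2, against 9.49% of all genes. They were SUL2, MET5, MET10, MET6, SAM1, MHT1, CYS3 and MMP1, from -0.43 (MHT1) to -0.70 (MET5). No member differed by that much between the controls, between the 2 h samples or between the 4 h arrays. The spread between the 1 h samples (root mean square SD) was 0.21 for the 38 genes and 0.17 for all genes, while in the controls it was 0.094 and 0.16 and at 2 h 0.062 and 0.085.

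Without 1 h replicate 2 the median at 1 h was -0.10. The calls of lower members were lost in that fit, while such calls over all genes became fewer as well. Without 1 h replicate 1, 18 were called lower and the median was -0.32, while over all genes the count called lower rose from 83 to 575. Members called lower were also fewer or absent without either control or either 2 h replicate. Over all genes such calls became fewer too, except without control replicate 2, where they became more. MET28, MET8 and MET1, the 3 that fell, were below both controls in each 1 h sample, but they were picked by their calls in these same samples. Of the 38 members, 23 were below both controls in replicate 1 and 28 in replicate 2, against 43.5% and 47.6% of all genes. The 1 h samples also differed in the ribosomal RNA signal, 10.5 in replicate 1 and 11.8 in replicate 2, whose part in the result was not tested. In the 2 h samples that signal was 11.4 and 13.0, with median deviations of the 38 genes of 0.03 and 0.03. On the 4 h arrays it was 12.2 and 12.1, with median deviations of 0.27 and 0.30. Any link between signal and deviation was not tested.

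**Figure D4:**
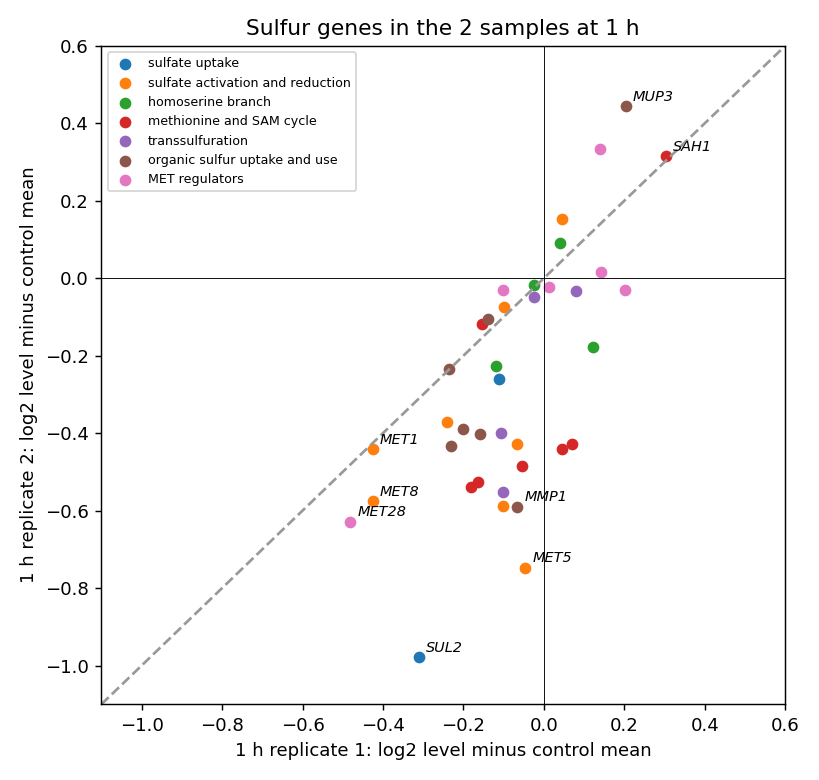
The log2 deviation from the control mean in 1 h replicate 2 (vertical) against that in 1 h replicate 1 (horizontal), with a point for each of the 38 sulfur genes coloured by role; the dashed line marks equal values. Most points lie below the line, SUL2 and MET5 furthest down, while MET1, MET8 and MET28 are low in both samples.

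The calls at 4 h rest on 1 RNA sample and on the spread taken from the other groups. Without either 2 h replicate, and in a fit of only the groups compared, 0 members were called higher at 4 h, and without control replicate 1 or control replicate 2 OPT1 alone was (adjusted p = 0.0484 and 0.0475). Without either 1 h replicate 11 were called higher. The 1 RNA sample at 4 h could not itself be left out. Over all genes the counts called higher at 4 h moved too, from 40 to 2 without either 2 h replicate, to 3 and 11 without control replicates 1 and 2, and to 82 without either 1 h replicate.

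The genes around the pathway were listed by function. Of 49 measured genes of glutathione turnover, methionine salvage, polyamine synthesis, folate and one-carbon metabolism, the threonine branch, other sulfur transport and use, and the Met30 ubiquitin ligase, 0 passed at 1 h and 0 at 2 h in limma. At an unadjusted p under 0.05, 12 of the 49 passed at 1 h and 11 at 2 h, against 1499 and 671 of all 5449 genes. At 4 h 1 rose and 3 fell, against 40 and 203 of all genes, and the median was -0.02. DUG3, a subunit of the enzyme that breaks down cytosolic glutathione, rose from 11.44 and 11.45 in the controls to 11.93 and 11.92 on the 4 h arrays, by 0.48 (SE 0.09, adjusted p = 0.0411). ARO9, an aminotransferase that can act in the last step of methionine salvage, stood at 12.07 and 11.87 in the controls and 10.90 and 10.84 on the 4 h arrays, and fell by 1.10 (SE 0.14, adjusted p = 0.0165). MDE1, a dehydratase of the same salvage route, fell by 0.70 (SE 0.13, adjusted p = 0.0447), and MIS1, the mitochondrial one-carbon enzyme, fell by 0.76 (SE 0.13, adjusted p = 0.0348). In the threonine branch, which draws on the same homoserine as MET2, 0 of 3 genes passed at 4 h in limma (0 at an unadjusted p under 0.05), from -0.16 to -0.00. All 4 polyamine genes, whose pathway consumes SAM, stood below the controls at 4 h, from -0.30 to -0.44, and 0 passed (3 at an unadjusted p under 0.05).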

How the data were processed

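Total RNA of 7 samples was measured as biotin-labelled cRNA on 8 arrays, per the labels. The deposited values are taken as log2 from their range, and per the submitters' processing notes the authors made them by RMA (version not given in the sources used here), which corrects background, brings arrays to a shared distribution and gives 1 value per probe set. Such scaling hides any shift in the overall amount of mRNA. Of 5814 probe sets, 5498 had 1 gene name in the platform annotation, 0 several and 316 none, and 12 symbols were updated. Where a gene had several probe sets the brightest on average stood for it, which left 5449 genes. The 25th percentile of all probe sets, 10.02, marked dim genes, 3 of them among the 38 (JLP1, MET28 and MET32).

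For 4 h the mean of the 2 technical arrays served as 1 sample, whose spread was assumed equal to that of the other groups. The test was limma's, version 3.58.1 under R 4.3.3 (lmFit and eBayes over all 7 RNA samples, 3 residual degrees of freedom), with Benjamini-Hochberg adjustment over all genes within each of 6 comparisons and a threshold of 0.05. The fit was tested on simulated data in which each gene had equal spread in all samples. Whether the assumption for 4 h holds was not tested by it. The labels call replicates biological without saying whether cultures were separate, so the p-values reflect only how far these samples differ, which may be technical. The small number of arrays sets the precision. Named in full were members called in any comparison, the 6 regulators, SUL1 and SUL2, and SAM1 and SAM2; of the neighbouring lists, genes called in the comparison described. The members and lists were chosen with earlier results of these data known. The 15 alternatives varied scaling, dim genes, the prior, the samples in the fit, the 4 h arrays, probe sets, the replicate block and each replicate left out. The planned promoter motif counts are not analysed here.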

Additional observations from a re-analysis of the deposited data

Results flagged for a closer look

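In 15 members the change from the controls differed between treated times by limma's test of the difference itself. Over all 5449 genes, members included, 639 passed that test from 1 h to 4 h and 47 from 2 h to 4 h. From 1 h to 4 h the differences were 1.40 (OPT1), 1.39 (STR3), 1.37 (SUL2), 1.11 (MUP1), 1.08 (SAM1), 0.90 (SAM2), 0.89 (MET2), 0.87 (MET28), 0.65 (MET8), 0.65 (MUP3), 0.64 (SAM3), 0.50 (MET16), 0.49 (MET32), 0.42 (YCT1) and -0.60 (SAH1) on the log2 scale. From 2 h to 4 h they were 1.13 (STR3), 0.89 (OPT1), 0.87 (MUP3) and -0.71 (SAH1). OPT1, STR3, MUP1, MET2 and MET28 passed from 1 h to 4 h under every alternative that could be fitted for them (15 for each, 14 for MET28).

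Outside the genes tested, the median of the 17 ribosomal RNA control probe sets was 2.27 higher at 4 h than in the controls. Its part in the results above was not tested.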

How the results depend on the processing

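Single gene calls repeated under the alternatives stayed past the threshold 323 times, missed it 108 times and changed sign 0 times; the causes were not tested. Each control, 1 h and 2 h RNA sample was left out in turn, but the 4 h RNA sample could not be. Counts over all genes moved in these fits as well, as described above, so the ranges cannot be read as a trait of the members. In these fits members called at 1 h ranged from 0 to 2 higher and 0 to 18 lower. Those called at 4 h ranged from 0 to 11 higher, and from 1 h to 2 h from 0 to 15 higher. From 1 h to 4 h the range was 5 to 24 higher and 0 to 1 lower. From 2 h to 4 h it was 0 to 5 higher and 0 to 1 lower. In a fit of only the groups compared the counts were 0 lower at 1 h, 0 higher at 4 h, 7 higher and 0 lower from 1 h to 4 h, and 18 higher and 2 lower from 2 h to 4 h, where all genes gave 3, 0, 14, 241, 191 and 456 in the same order. Array centring and quantile normalisation each gave 1 member higher at 1 h, among 246 and 173 of all genes against 189 in the main fit. From 1 h to 2 h they gave 1 and 2 higher. A trended prior gave 1 higher at 1 h and 1 at 2 h, among 264 and 10 of all genes. It gave 2 from 1 h to 2 h, 22 from 1 h to 4 h and 5 from 2 h to 4 h. Leaving out dim genes gave 5 in that last step. The counts over all genes for these steps between treated times are not given here. The replicate numbers are not shown to pair the samples: same-numbered deviations correlated at 0.10 (control and 1 h), 0.19 (control and 2 h) and 0.03 (1 h and 2 h) across genes. With the replicate block, 2 members were higher from 1 h to 2 h and 0 lower from 2 h to 4 h. The counts over all genes for those steps are not given here. At 1 h that fit called 340 of all genes higher, against 189 in the main fit. At 4 h 6 members were higher in that fit, among 37 of all genes. Beside the fits with fewer samples, MET32 lost its call at 4 h against the controls with a trended prior (adjusted p = 0.0523), with 4 h array 2 alone (0.0517) and with the replicate block (0.0573), and MET16 with quantile normalisation (0.0522). Promoter motif counts were planned and not run. Dim probe sets have signal close to the background, which limits MET28, MET32 and JLP1.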
